A study of Mus musculus with 61 samples.

Results

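A set of 4 genes of the cation-chloride cotransporter family was followed through fetal development of the mouse brain and liver: Slc12a2, Slc12a5, Slc12a4 and Slc12a7. They were taken from the deposited expression table by matching its Ensembl identifiers to GENCODE mouse symbols, and are 4 of its 43346 genes. Slc12a5 was the member that changed most. In each of forebrain, midbrain and hindbrain it was the highest of the 4 genes at P0 and the lowest at E10.5, while Slc12a7 was the lowest at P0 and the highest at E10.5 and Slc12a2 changed less. The ratio of Slc12a5 to Slc12a2 lay between 2.77 and 10.9 in the brain libraries of P0 and between 0.152 and 0.331 in those of E10.5. In liver that ratio stayed at or below 0.359 in every library.

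Cation-chloride cotransporters carry chloride across the cell membrane together with sodium and potassium or with potassium alone. Slc12a2 encodes NKCC1, which brings chloride into cells, whereas Slc12a5, Slc12a4 and Slc12a7 encode the potassium-chloride cotransporters KCC2, KCC1 and KCC4, which normally carry it out. In neurons the balance of NKCC1 and KCC2 is known to set the chloride gradient on which GABA and glycine receptors act, and KCC2 is known as the neuronal member of the family. The kinases of the WNK and SPAK/OSR1 families phosphorylate these transporters, which raises the activity of NKCC1 and lowers that of the potassium-chloride cotransporters.

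The series holds RNA-seq libraries of forebrain, midbrain and hindbrain at E10.5, E11.5, E12.5, E13.5, E14.5, E15.5, E16.5 and P0, the day of birth, and of liver at E11.5 to P0. There were 15 forebrain, 16 midbrain, 16 hindbrain and 14 liver libraries, in 31 groups of 1 tissue and 1 stage; 30 groups had 2 libraries, and forebrain at E10.5 had 1. The groups carry no genotype or treatment label, and the labels do not state strain, sex or any pooling of embryos. Nothing in them says whether the 2 libraries of a group came from different embryos, and a p-value here reflects only the variation among the libraries at hand, part of which may be technical. Values are TPM, transcript abundances that are scaled by transcript length to a fixed total and can be compared between genes of 1 library; they keep no read counts, so the depth is unknown. Each library had 12104 to 15561 genes at 1 TPM or more.

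Several libraries stand apart or go against their labels. The hindbrain Hox gene Hoxb3 was at 78.04 to 87.6 TPM in the E15.5 libraries labelled midbrain and at 0.15 to 0.24 TPM in those labelled hindbrain, and Hoxa5 at 119.9 to 120.04 and 0.07 to 0.26 TPM; at all other stages the libraries labelled hindbrain had the higher values. The 6 brain libraries of E12.5 held 3.64 to 112 TPM of Alb, the albumin gene of hepatocytes. In 11 libraries (all 8 of E15.5, both of midbrain at P0 and 1 of hindbrain at P0) genes annotated as miRNA summed to under 60 TPM, a class noticed after the table was seen. The class is not uniform. Its sums were 0 to 4.3 TPM at E15.5 and 41.9 to 55.5 TPM at P0, and the lowest sum outside it was 71.1 TPM, in liver at E13.5. For 4 midbrain and hindbrain columns of E16.5 and P0 the header and the record's title name different stages; the stage of the header was kept, and these libraries are called unnumbered. The neuron markers Tubb3, Rbfox3, Snap25, Syt1, Map2 and Nefl summed to 355 to 4069 TPM in brain and 2.79 to 29.5 TPM in liver, and the hepatocyte markers Alb, Afp, Apoa1 and Ttr to 10144 TPM or more in liver. Ttr is also a gene of the choroid plexus, the epithelium that makes cerebrospinal fluid.

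Slc12a5, the neuronal chloride exporter, is the member with the largest change and Slc12a7 the member that changed most in the opposite direction, so the stretches upstream of their start sites are shown. RefSeq windows (GRCm38.p6, the assembly of mm10) matched 3 of the 4 genes. Slc12a5 has windows at 2 start sites, both on the plus strand of chromosome 2, chr2:164960596-164960845 and chr2:164967738-164967987, and Slc12a7, the further upstream of whose 2 overlapping windows is left out, is shown on the plus strand at chr13:73763447-73763696. Each holds the 250 bases before its start site, 5′ to 3′, with the letters CACGTG, an E-box that reads the same on both strands, in capitals.
Slc12a5, upstream start site: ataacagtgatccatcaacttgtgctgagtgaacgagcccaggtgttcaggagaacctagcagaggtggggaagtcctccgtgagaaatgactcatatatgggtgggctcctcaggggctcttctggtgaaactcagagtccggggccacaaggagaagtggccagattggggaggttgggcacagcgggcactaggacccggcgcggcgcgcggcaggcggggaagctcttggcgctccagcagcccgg
Slc12a5, downstream start site: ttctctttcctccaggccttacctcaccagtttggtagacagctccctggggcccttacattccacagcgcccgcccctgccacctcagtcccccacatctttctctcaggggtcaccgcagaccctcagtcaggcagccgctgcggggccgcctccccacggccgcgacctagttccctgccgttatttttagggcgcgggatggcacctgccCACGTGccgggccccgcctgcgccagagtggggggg
Slc12a7: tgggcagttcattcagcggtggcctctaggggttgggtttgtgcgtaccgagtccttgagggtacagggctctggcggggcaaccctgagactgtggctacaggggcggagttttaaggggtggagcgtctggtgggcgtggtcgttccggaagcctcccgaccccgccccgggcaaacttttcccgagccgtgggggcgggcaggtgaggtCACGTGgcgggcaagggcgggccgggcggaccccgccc
The E-box letters are 36 bases before the downstream start site of Slc12a5, counted from their first base, and 38 bases before that of Slc12a7, and are missing from the upstream window of Slc12a5, from the window of Slc12a4 and from the other Slc12a7 window. They stand in 6.02% of the 32851 windows of this length. The letters GGGCGG, a GC box, on either strand occur 6 times in the Slc12a7 window shown, 3 times in the other Slc12a7 window and in the Slc12a4 window, 1 time in the downstream window of Slc12a5 and 0 times in its upstream window, and in 32.7% of all windows. Both Slc12a7 start sites, 73763660 and 73763697, lie inside the GENCODE span of that gene, which begins at 73733094. The TPM values are per gene and do not tell transcripts of different start sites of Slc12a5 or of Slc12a7 apart.

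The chloride importer gene Slc12a2 (ENSMUSG00000024597.10, mm10 chromosome 18, 57878678 to 57946821, plus strand, protein-coding) was present at 1 TPM or more in all 61 libraries. Brain libraries of E11.5 to P0 had a lowest, median and highest value of 15.49, 19.8 and 24.0 TPM in forebrain, 12.2, 16.47 and 21.4 TPM in midbrain and 13, 19.2 and 26.95 TPM in hindbrain, against 1.03, 1.57 and 6.34 TPM in liver. Every brain library was thus above every liver library. Averaged over the 7 shared stages on the scale of log2(TPM + 1), Slc12a2 was higher than in liver by 2.74 ± 0.035 in forebrain, 2.47 ± 0.035 in midbrain and 2.70 ± 0.035 in hindbrain (log2 fold change ± SE, 14 libraries each; limma, adjusted p = 3.38e-38, 7.77e-37 and 4.5e-38). A gene was called where its adjusted p was below 0.05 and its change was 1 or more on the log2 scale in either direction. By that rule 52.0%, 53.7% and 54.4% of the 18655 genes tested were called in forebrain, midbrain and hindbrain against liver, so a call alone sets no gene apart here. The median of all genes also lay above liver, by 0.77, 0.80 and 0.85; with median-of-ratios scaling, which brings that median in forebrain to 0.0051, Slc12a2 was higher than in liver by 1.86, 1.56 and 1.77. In bulk tissue, fewer cells of a type and less RNA per cell cannot be told apart.

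Slc12a2 was higher at E11.5 than at E10.5 in each brain region. It had 19.1 and 21.4 TPM in midbrain at E11.5, against 12.2 and 11.4 TPM at E10.5 (0.73 ± 0.093; limma, adjusted p = 6.71e-08), and 23.1 and 24.9 TPM in hindbrain, against 14.9 and 14.02 TPM (0.69 ± 0.093; limma, adjusted p = 1.21e-07). Neither difference reached the threshold of 1, and the stages did not overlap. In forebrain the difference was 0.53 ± 0.114 against the single E10.5 library of 13.7 TPM (limma, adjusted p = 0.000342). At P0 it had 18.2 and 20.1 TPM in forebrain, against 17.0 and 24.0 TPM at E11.5. In midbrain it had 13.4 and 13 TPM at P0, against 19.1 and 21.4 TPM at E11.5, and in hindbrain 20.04 and 18.4 TPM, against 23.1 and 24.9 TPM. The groups overlap in forebrain and not in the other regions, where both P0 libraries were lower. None of the changes was called; they were -0.07 ± 0.093, -0.58 ± 0.093 and -0.31 ± 0.093 (limma, adjusted p = 0.489, 1.07e-06 and 0.0038). Without the library forebrain E11.5 r2 the forebrain value was 0.16. In the same comparison 30.9%, 33.4% and 28.0% of genes were called in forebrain, midbrain and hindbrain. At E15.5, where all libraries are of the class low in miRNA genes, Slc12a2 lay at 15.49 to 16.46, 12.2 to 14.2 and 13 to 13.3 TPM in forebrain, midbrain and hindbrain, below both E14.5 and E16.5 libraries of the same region; the part of the library class in this was not tested. In liver Slc12a2 fell to 1.56 and 1.59 TPM at P0, against 6.34 and 6.27 TPM at E11.5, by 1.504 on the log2 scale (SE 0.093; limma, adjusted p = 1.27e-16). There 46.3% of genes were called and the median gene fell by 0.69; with median-of-ratios scaling the value was -0.68 and with quantile normalization -0.97, so the call was lost.

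Slc12a5, the chloride exporter gene of neurons (ENSMUSG00000017740.12, mm10 chromosome 2, 164960802 to 164999731, plus strand, protein-coding), reached 1 TPM in 49 of 61 libraries; the 12 below it were liver. In forebrain it had 2.08 TPM at E10.5, 2.82 and 4.22 at E11.5, 6.98 and 6.42 at E12.5, 10.7 and 10.1 at E13.5, 15.6 and 16.3 at E14.5, 25.6 and 21.4 at E15.5, 22.4 and 19.96 at E16.5 and 72.2 and 55.7 TPM at P0. In midbrain the values were 2.39 and 2.46 TPM at E10.5, 4.29 and 5.01 at E11.5, 11.3 and 11.8 at E12.5, 29.2 and 29.9 at E13.5, 54.4 and 53.8 at E14.5, 73.6 and 70.6 at E15.5, 71.2 and 111 at E16.5 and 134 and 141 TPM at P0. Hindbrain libraries had 4.03 and 4.64 TPM at E10.5, 11.7 and 10.4 at E11.5, 11.8 and 16.7 at E12.5, 35.2 and 32.1 at E13.5, 41.2 and 39.1 at E14.5, 68.6 and 67.3 at E15.5, 69.5 and 84.0 at E16.5 and 119.9 and 119.4 TPM at P0. Hindbrain was thus the highest region up to E13.5 and the libraries labelled midbrain from E14.5 on, and forebrain the lowest brain region at every stage. Midbrain and hindbrain overlapped at E16.5, where the unnumbered midbrain library was far above its partner. At E15.5 the Hox genes go against both labels, and with the labels exchanged hindbrain would be the highest region at that stage. In liver the lowest, median and highest of 14 libraries were 0.14, 0.325 and 1.17 TPM, below every brain library.

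**Figure D1:**
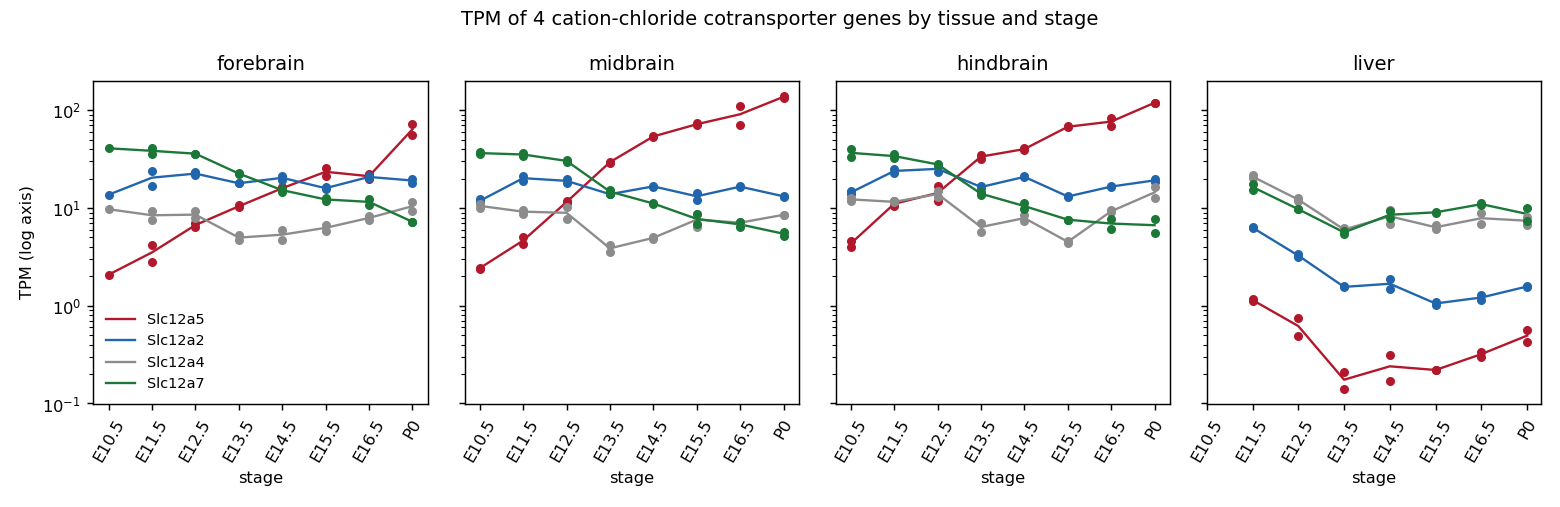
TPM (log axis) of Slc12a5, Slc12a2, Slc12a4 and Slc12a7 by stage in forebrain, midbrain, hindbrain and liver; points are libraries and lines join stage means. Slc12a5 lies at 55.7 and 72.2 TPM in forebrain at P0, against 2.08 TPM at E10.5, and passes the other 3 genes in each brain region, while it stays at 1.17 TPM or less in liver.

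Slc12a5 rose in each brain region. The change at P0 over E11.5 was 3.85 ± 0.147 in forebrain, 4.62 ± 0.147 in midbrain and 3.32 ± 0.147 in hindbrain (log2 fold change ± SE, 2 libraries per group; limma, adjusted p = 2.9e-22, 1.91e-24 and 2.85e-20), with no overlap between stages. Of all genes tested, 19.2%, 18.3% and 16.2% were called higher in these comparisons. In liver Slc12a5 had 0.56 and 0.43 TPM at P0, against 1.12 and 1.17 TPM at E11.5, a difference of -0.52 ± 0.147 that was not called (limma, adjusted p = 0.00172). The brain changes exceeded the liver change by 4.37 in forebrain, 5.14 in midbrain and 3.85 in hindbrain (SE 0.208 each; limma, adjusted p = 1.64e-19, 1.7e-21 and 6.54e-18), in comparisons in which 50.2%, 48.9% and 46.7% of genes were called. These 3 differences share the same liver libraries. Averaged over E11.5 to P0, Slc12a5 was higher than in liver by 3.46 in forebrain, 4.72 in midbrain and 4.81 in hindbrain (SE 0.056 each; limma, adjusted p = 3.49e-35, 2.19e-39 and 1.22e-39). With median-of-ratios scaling these values were 2.93, 4.16 and 4.21.

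The rise did not fall in the same interval in each region. Between neighbouring stages Slc12a5 passed the threshold in forebrain at P0 over E16.5 (1.54, limma, adjusted p = 1.41e-10), in midbrain at E12.5 over E11.5 (1.15, adjusted p = 1.62e-07) and at E13.5 over E12.5 (1.28, adjusted p = 1.09e-08), and in hindbrain at E11.5 over E10.5 (1.18, adjusted p = 3.19e-08) and at E13.5 over E12.5 (1.199, adjusted p = 2.52e-08), each with an SE of 0.147. The shares of genes called in these 5 comparisons were 6.92%, 4.33%, 6.8%, 7.63% and 9.33%. Without the library hindbrain E12.5 r1 the last value was 0.96 and no longer called. Under quantile normalization midbrain E12.5 over E11.5 gave 0.89 and hindbrain E11.5 over E10.5 gave 0.80, both below the threshold, and median-of-ratios scaling took the hindbrain step to 0.89. The difference in timing between regions was not tested. The E12.5 libraries contain liver transcripts, and their part in the steps at E12.5 and E13.5 was not tested.

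Among the regions, forebrain had less Slc12a5 than midbrain and hindbrain. The difference averaged -1.27 ± 0.056 for forebrain against midbrain and -1.36 ± 0.056 for forebrain against hindbrain (limma, adjusted p = 3.79e-20 and 3.3e-21), in comparisons that called 2.73% and 4.32% of genes. Without the E15.5 libraries labelled midbrain and hindbrain the values were -1.21 and -1.33, and in the libraries outside the class low in miRNA genes -1.24 and -1.33. Midbrain minus hindbrain was -0.09 ± 0.056 (limma, adjusted p = 0.238), in a comparison that called 0.97% of genes. Slc12a5 was the only member called between brain regions; Slc12a2, Slc12a4 and Slc12a7 differed by at most 0.44 in size. That largest value was Slc12a7 in forebrain minus hindbrain.

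Markers of neurons and of several other cell types were also higher at P0. The 6 neuron markers summed to 3330 and 3651 TPM in forebrain at P0, against 1005 and 1042 TPM at E11.5; to 4011 and 4063 TPM in midbrain, against 1431 and 1498 TPM; and to 3292 and 3699 TPM in hindbrain, against 1852 and 1981 TPM. Of these 6 genes 6, 6 and 3 were called higher in forebrain, midbrain and hindbrain, where 19.2%, 18.3% and 16.2% of all genes were. None of the 6 was at 0 in all libraries of a group. Snap25, a synaptic vesicle fusion protein, rose by 3.93 ± 0.108 in forebrain, and Syt1 and Rbfox3 by 3.75 and 3.09 (limma, adjusted p = 5.02e-26, 4.06e-23 and 7.06e-20). All 4 astrocyte markers were called higher at P0 in each brain region, with Gfap at 5.04, Aldh1l1 at 4.64 and Aqp4 at 3.53 in forebrain. Of 5 choroid plexus markers 3, 2 and 4 were called higher in forebrain, midbrain and hindbrain, and of 5 oligodendrocyte lineage markers 3 in each region. Of 4 microglia markers 2, 1 and 1 were called higher, and 1 of 4 is near the share of all genes. Of 3 endothelium markers 1 was called higher in each region, and the median change of the 3 was -0.493, -0.615 and -0.457. The part of cell composition in the rise of Slc12a5 was not tested.

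The potassium-chloride cotransporter gene Slc12a4 (ENSMUSG00000017765.12, mm10 chromosome 8, 105943590 to 105966097, minus strand, protein-coding), which encodes the widely expressed KCC1, was at 1 TPM or more in all 61 libraries. It overlaps the antisense gene Gm16156, which had at most 0.11 TPM, and the library kit marks strand. Its lowest, median and highest values at E11.5 to P0 were 4.72, 7.54 and 11.52 TPM in forebrain, 3.56, 7.47 and 10.2 TPM in midbrain and 4.42, 9.28 and 16.4 TPM in hindbrain, against 5.77, 7.5 and 21.7 TPM in liver. Every region overlapped with liver. The log2 fold changes against liver were -0.29, -0.34 and 0.01 (SE 0.056 each; limma, adjusted p = 1.2e-05, 6.43e-07 and 0.861), and none was called with TPM as deposited. With median-of-ratios scaling they were -1.36, -1.43 and -1.12 and with quantile normalization -1.37, -1.53 and -1.26, all called, so the result for Slc12a4 against liver depends on the scaling.

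In brain Slc12a4 went through a low point in the middle of the series. In midbrain it had 10.1 and 10.99 TPM at E10.5, 7.66 and 10.2 at E12.5, 4.18 and 3.56 at E13.5, 4.82 and 5.09 at E14.5, 8.77 and 6.46 at E15.5 and 8.56 and 8.49 TPM at P0. In hindbrain it had 11.8 and 12.7 TPM at E10.5, 15.02 and 12.8 at E12.5, 7.07 and 5.73 at E13.5, 7.36 and 8.43 at E14.5, 4.61 and 4.42 at E15.5 and 12.6 and 16.4 TPM at P0. The E15.5 values stand under labels that Hoxb3 and Hoxa5 go against, and exchanged they would be 8.77 and 6.46 TPM in hindbrain and 4.61 and 4.42 TPM in midbrain. The fall at E13.5 over E12.5 was called in midbrain (-1.02, limma, adjusted p = 7.14e-07) and in hindbrain (-1.01, adjusted p = 5.7e-07), and missed the threshold of 1 at -0.85 and -0.87 with median-of-ratios scaling, at -0.83 and -0.93 with quantile normalization, and when either of 2 libraries was left out in each region. Left out in turn, midbrain E12.5 r2 and midbrain E13.5 r2 gave -0.83 and -0.93, and hindbrain E12.5 r1 and hindbrain E13.5 r2 gave -0.91 and -0.88. P0 against E11.5 was not called in any brain region (0.28, -0.10 and 0.29 in forebrain, midbrain and hindbrain, SE 0.147 each; limma, adjusted p = 0.0886, 0.578 and 0.0784). In liver Slc12a4 fell to 8.13 and 6.71 TPM at P0, against 20.4 and 21.7 TPM at E11.5 (-1.39 ± 0.147, limma, adjusted p = 1.34e-10), a call that median-of-ratios scaling (-0.31) and quantile normalization (-0.57) both removed.

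Slc12a7 (ENSMUSG00000017756.8, mm10 chromosome 13, 73733094 to 73816754, plus strand, protein-coding) encodes KCC4, a potassium-chloride cotransporter known from epithelia. It was the highest of the 4 genes in all 5 forebrain, 6 midbrain and 6 hindbrain libraries of E10.5 to E12.5. In forebrain it had 35.6 and 41.4 TPM at E11.5, 15.8 and 14.7 at E14.5, 11.9 and 12.6 at E15.5 and 7.19 and 7.28 TPM at P0. In midbrain the values at those stages were 33.9 and 36.8, 11.2 and 11.1, 8.66 and 6.84, and 5.73 and 5.19 TPM, and in hindbrain 32.3 and 35.7, 9.74 and 11.2, 7.63 and 7.58, and 5.59 and 7.76 TPM. P0 lay below E11.5 in every brain region with no overlap. The change was -2.26 ± 0.12 in forebrain, -2.49 ± 0.12 in midbrain and -2.20 ± 0.12 in hindbrain (limma, adjusted p = 2.87e-18, 1.69e-19 and 8.02e-18), and 11.8%, 15.1% and 11.8% of genes were called lower in these comparisons. Within each brain region the correlation of Slc12a7 with Slc12a5 over all its libraries was -0.96, -0.97 and -0.96 in forebrain, midbrain and hindbrain (Pearson r of log2(TPM + 1), 15, 16 and 16 libraries that share the order of stages), against 0.78 over 14 libraries in liver. In liver every pair among the 4 genes had a positive r, from 0.67 for Slc12a2 with Slc12a7 to 0.95 for Slc12a2 with Slc12a4. Slc12a5 lay between 0.14 and 1.17 TPM there, and all 4 genes were lower at P0 than at E11.5. The part of that shared fall in the liver value was not tested. These correlations are a description.

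In liver Slc12a7 had 7.42 and 9.98 TPM at P0, against 15.4 and 17.5 TPM at E11.5, a difference of -0.86 ± 0.12 that was not called (limma, adjusted p = 6.37e-08) and that turned to 0.24 with median-of-ratios scaling. Without the library liver P0 r2 it was -1.05 and called. The fall in brain exceeded that in liver by -1.40, -1.64 and -1.35 in forebrain, midbrain and hindbrain (SE 0.17 each, limma, adjusted p = 3.51e-09, 1.14e-10 and 8.94e-09). These comparisons called 50.2%, 48.9% and 46.7% of all genes. Averaged over E11.5 to P0, Slc12a7 was at 0.83, 0.40 and 0.39 against liver and was not called in any region; the sign was negative with median-of-ratios scaling (-0.27, -0.71 and -0.75) and with quantile normalization (-0.30, -0.81 and -0.87). Most of 5 neural progenitor markers were called lower at P0 in brain, where Slc12a7 fell. They summed to 351 and 386 TPM in forebrain at P0, against 2222 and 2408 TPM at E11.5, and 5, 5 and 3 of them were called lower and 0, 0 and 1 higher in forebrain, midbrain and hindbrain, with Nes at -3.35, Vim at -2.73 and Pax6 at -2.48 in forebrain (limma, adjusted p = 9.17e-22, 8.91e-21 and 4.61e-15). Of all genes 11.8%, 15.1% and 11.8% were called lower in forebrain, midbrain and hindbrain, and 16.2% were called higher in hindbrain, near 1 of 5. The marker called higher in hindbrain was Pax6, at 1.24 (limma, adjusted p = 7.16e-08). None was at 0 in all libraries of a brain group, and their part in the fall of Slc12a7 was not tested.

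**Figure D2:**
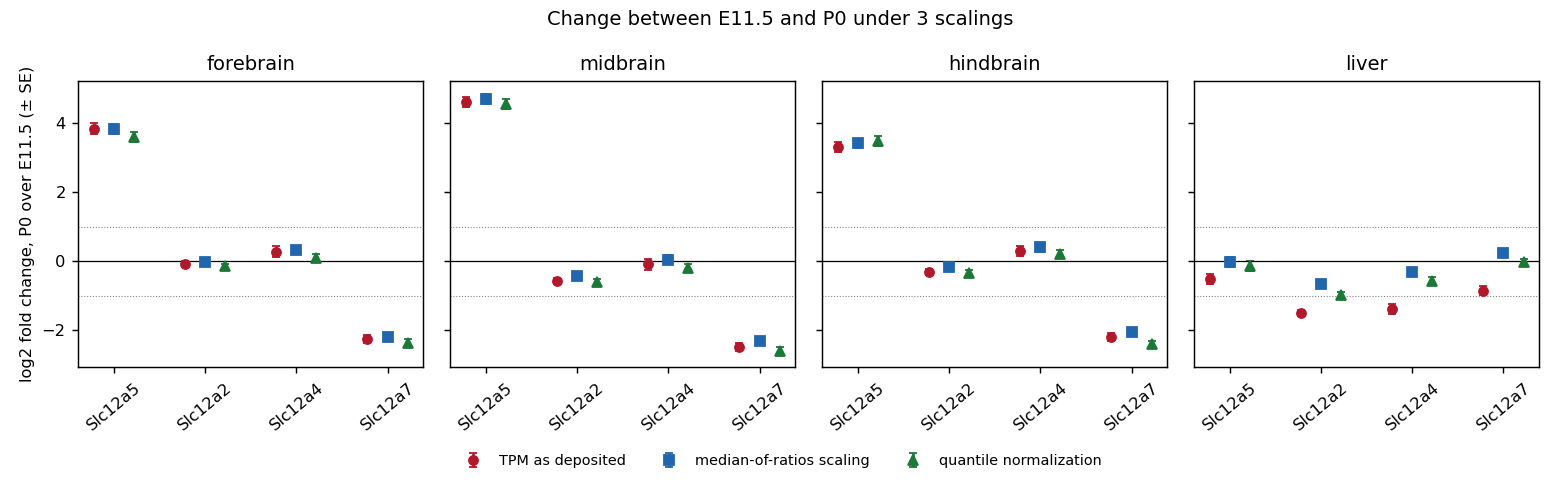
Log2 fold change of P0 over E11.5 with SE for the 4 genes in each tissue, from TPM as deposited, after median-of-ratios scaling and after quantile normalization; dotted lines mark 1 and -1. In brain Slc12a5 and Slc12a7 keep their place under each scaling, while in liver all 4 genes move towards 0 and Slc12a7 changes from -0.86 to 0.24.

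Slc12a5 and Slc12a7 held opposite ends of the order of the 4 genes at P0 and at E10.5 in each brain region, and Slc12a2 stayed above Slc12a4 at both stages. Slc12a5 made up 3.13 to 6.48% of their summed TPM in the brain libraries of E10.5, 12.6 to 14.9% in hindbrain at E11.5 and 58.9 to 84.1% in the brain libraries of P0. Slc12a7 made up 3.09 to 7.7% at P0 and 52.0 to 61.6% at E10.5. In liver Slc12a5 held 1.04 to 3.17% of the sum in all 14 libraries, and Slc12a4 and Slc12a7 were the leading genes. The summed TPM of the 4 genes was 94.5 to 168 in brain at P0 and 12.9 to 46.6 in liver. Erythroid markers summed to at most 7027 TPM in brain, against 21965 to 249994 TPM in liver, and hepatocyte markers to 10144 to 112612 TPM in liver; the part of these abundant transcripts in the lower TPM of liver was not tested beyond the scalings given.

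**Figure D3:**
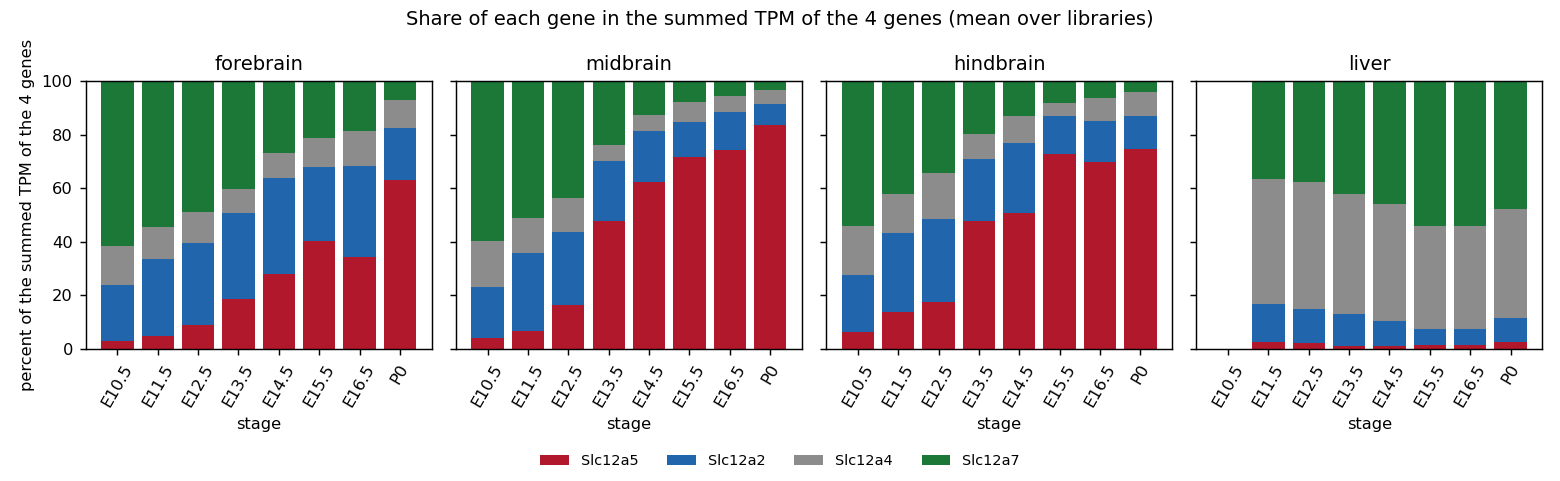
Percent of the summed TPM of Slc12a5, Slc12a2, Slc12a4 and Slc12a7 held by each gene, as the mean over the libraries of a tissue and stage. The mean share of Slc12a5 is 63.2% or more in brain at P0 and at most 6.39% at E10.5, and at most 2.73% in liver.

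The ratio of Slc12a5 to Slc12a2 is formed within a library, so a scaling factor between libraries cancels in it as long as no TPM is added. In forebrain it was 0.152 at E10.5, 0.166 and 0.176 at E11.5, 0.324 and 0.273 at E12.5, 0.597 and 0.566 at E13.5, 0.736 and 0.833 at E14.5, 1.56 and 1.38 at E15.5, 1.09 and 0.944 at E16.5 and 3.97 and 2.77 at P0. In midbrain it was 0.195 and 0.215 at E10.5, 0.225 and 0.234 at E11.5, 0.619 and 0.596 at E12.5, 2.11 and 2.14 at E13.5, 3.28 and 3.21 at E14.5, 5.18 and 5.78 at E15.5, 4.24 and 6.80 at E16.5 and 10.01 and 10.9 at P0. In hindbrain it was 0.271 and 0.331 at E10.5, 0.507 and 0.418 at E11.5, 0.438 and 0.715 at E12.5, 2.09 and 2.004 at E13.5, 1.95 and 1.90 at E14.5, 5.17 and 5.18 at E15.5, 4.10 and 5.17 at E16.5 and 5.98 and 6.50 at P0. Slc12a5 thus exceeded Slc12a2 in both libraries from E13.5 on in midbrain and hindbrain, and in forebrain at E15.5 and P0, with 1 of 2 libraries at E16.5. At E11.5 the order was hindbrain, midbrain, liver, forebrain, and from E13.5 on, by the labels, midbrain, hindbrain, forebrain, liver, where midbrain and hindbrain overlapped at E16.5 among these stages. At E15.5, where the Hox genes go against the labels, exchanging them would put hindbrain above midbrain. In liver the lowest, median and highest ratios were 0.0909, 0.195 and 0.359, and no liver library had more Slc12a5 than Slc12a2.

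**Figure D4:**
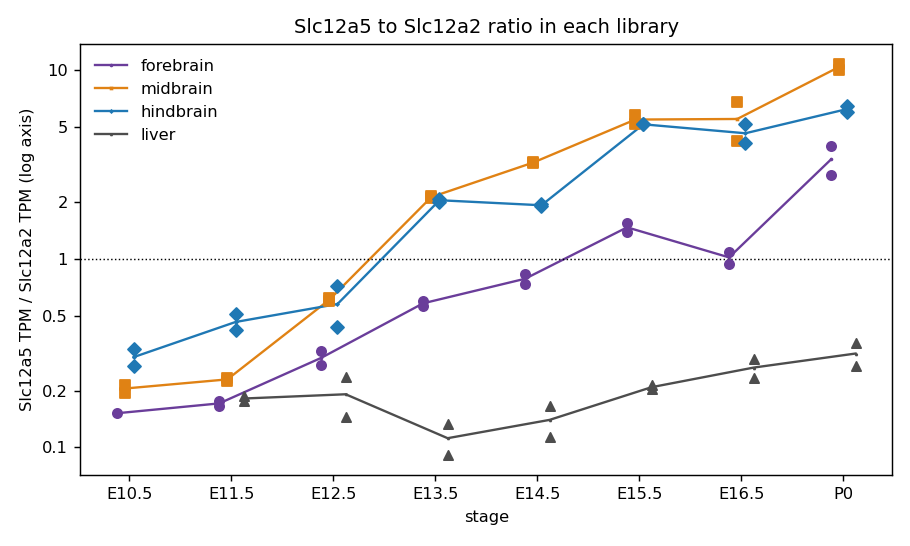
Ratio of Slc12a5 TPM to Slc12a2 TPM (log axis) by stage in forebrain, midbrain, hindbrain and liver; points are libraries, lines join stage means, and the dotted line marks equal TPM. The ratio passes 1 at E13.5 in midbrain and hindbrain and at E15.5 in forebrain, and liver stays at or below 0.359.

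Compared on the scale of log2((Slc12a5 TPM + 1)/(Slc12a2 TPM + 1)) over E11.5 to P0, each brain region had a higher ratio than liver on average. With 1 TPM added a scaling factor no longer cancels fully. The ratio on this scale was not tested again under median-of-ratios scaling or quantile normalization. The mean difference was 0.71 in forebrain, 2.26 in midbrain and 2.11 in hindbrain (exact permutation test within stages, two-sided, p = 0.00291, 4.29e-05 and 7.14e-06; adjusted over 6 comparisons, 0.00349, 6.43e-05 and 1.43e-05). The smallest p that the 279936 arrangements can give is 7.14e-06. By stage, forebrain minus liver on this scale was -0.48 at E11.5, -0.21 at E12.5 and 2.46 at P0. At E13.5 to E16.5 it was 0.40, 0.78, 1.28 and 0.77, so the average joins stages of opposite sign. The sign at E12.5 depended on the added 1 TPM. With nothing added the E12.5 ratio was higher in forebrain, at 0.324 and 0.273, than in liver, at 0.145 and 0.237. Midbrain minus liver was -0.14 at E11.5 and between 0.73 and 4.07 from E12.5 on. Here too the negative sign depended on the added 1 TPM. With nothing added the E11.5 ratio was higher in midbrain, at 0.225 and 0.234, than in liver, at 0.177 and 0.187. Hindbrain minus liver was between 0.61 and 3.36 at all 7 stages. The added 1 TPM pulls the liver values towards equality, because both genes are low there; with 0.1 TPM added the differences were 1.65, 3.26 and 3.12 (exact permutation test, adjusted p = 8.57e-05, 1.07e-05 and 1.07e-05).

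Forebrain had a lower ratio than midbrain, by -1.54, and than hindbrain, by -1.39 (exact permutation test within stages, p = 7.14e-06 each, adjusted 1.43e-05), and lay below both at all 7 stages. Midbrain minus hindbrain was 0.15 (exact permutation test, p = 0.243, adjusted 0.243) and ranged by stage between -0.86 at E11.5 and 0.73 at E14.5. Without the E15.5 libraries labelled midbrain and hindbrain the 3 differences were -1.49, -1.33 and 0.16, and in the libraries outside the class low in miRNA genes -1.47, -1.32 and 0.05. Without E12.5 they were -1.64, -1.49 and 0.15. At E15.5 the ratios of the libraries labelled midbrain and hindbrain lay between 5.17 and 5.78.

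The ratio climbed with the order of the stages in forebrain, midbrain and hindbrain, and for liver the relation depended on the added TPM. On the same log2 scale Pearson's r and Spearman's rho were 0.96 and 0.96 in forebrain (15 libraries), 0.97 and 0.97 in midbrain (16), 0.96 and 0.95 in hindbrain (16) and 0.91 and 0.90 in liver (14), with permutation p = 1e-05, the smallest that 100000 permutations can give, except for rho in liver (permutation p = 6e-05); adjusted over 8 values they were 1.14e-05 and 6e-05. Leaving out the 2 libraries farthest from the median stage gave r of at least 0.94, 0.96, 0.94 and 0.87. Outside the class low in miRNA genes r was 0.96, 0.96, 0.96 and 0.92. The liver relation was the weakest: with 0.1 TPM its r was 0.76 (permutation p = 0.0023, adjusted 0.00263). With nothing added, the percent of Slc12a5 in the sum of Slc12a5 and Slc12a2 gave liver an r of 0.63 and a rho of 0.60 (permutation p = 0.0168 and 0.0261, adjusted 0.0192 and 0.0261), and the liver ratio was lowest at E13.5. Between E11.5 and P0 the log2 ratio rose by 3.93 in forebrain, 5.20 in midbrain and 3.63 in hindbrain, against 0.98 in liver; 2 libraries a stage are too few for a permutation test of these changes.

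Other genes of the chloride pathway were counted from lists written with earlier results of these data known. Of 5 other members of the Slc12a family, Slc12a1 and Slc12a3, which encode sodium-coupled chloride cotransporters of the kidney, were too low to be tested, and 3 were tested. Slc12a9 was called higher at P0 in forebrain (1.11; limma, adjusted p = 2.01e-11), and at 0.93 under quantile normalization missed the threshold. No other member of this list was called in a brain region at P0 over E11.5. Among 10 genes of the WNK and SPAK/OSR1 kinases and their partners, 2, 2 and 1 were called higher and 0 lower in forebrain, midbrain and hindbrain, near the 19.2%, 18.3% and 16.2% of all genes called higher. In forebrain these were Klhl3, an adaptor for the degradation of WNK kinases, at 1.61 and Wnk2 at 1.48 (limma, adjusted p = 6.21e-14 and 3.89e-12); Wnk1 had a value of -0.60 and was not called. The median of this list was 0.13, -0.20 and -0.08, against 0.02, -0.01 and -0.02 for all genes.

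The receptors that depend on the chloride gradient rose with Slc12a5. All 11 GABA-A receptor subunit genes were called higher at P0 over E11.5 in each brain region. Of all genes 19.2%, 18.3% and 16.2% were called higher in forebrain, midbrain and hindbrain. In liver 0 of 11 were called higher, where only 1519 of all 18655 genes were, so that count alone does not set the subunits apart. Their median changes were 3.28, 3.14 and 3.13 in forebrain, midbrain and hindbrain and -0.27 in liver, where the median of all genes was -0.69. Gabra5 averaged 76.9 ± 10.6 TPM in forebrain at P0, against 0.615 ± 0.021 TPM at E11.5 (SD, n = 2 each), which is 5.58 ± 0.106 on the log2 scale (limma, adjusted p = 6.04e-30). Gabrb1 rose by 3.34. Of 4 glycine receptor subunit genes and the scaffold gene Gphn, 4, 5 and 4 of the 5 were called higher, with Glra2 at 4.69, Glrb at 2.43 and Gphn at 1.197 in forebrain. Of 6 genes of GABA and glycine synthesis and transport, 4, 5 and 6 were called higher. In forebrain Gad1, a GABA-synthesising enzyme, rose by 2.92 and Slc32a1, the vesicular transporter, by 2.22; Gad2 had 0.72 and was not called, or 1.003 and called without forebrain E11.5 r2.

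Beside the 19.2%, 18.3% and 16.2% of all genes called higher in forebrain, midbrain and hindbrain, genes that power or accompany chloride transport gave the following counts. Of 6 sodium pump subunits 4 were called higher in each brain region, with Atp1b1 at 4.07 in forebrain. Of 6 other chloride or bicarbonate transport genes 4 were called higher in each brain region. In forebrain Slc4a10, a sodium-dependent chloride-bicarbonate exchanger, rose by 4.41, Slc4a3 by 1.80 and Slc4a8 by 1.38. Of 9 partners and regulators of KCC2, 8 were tested, and 6, 6 and 5 were called higher in forebrain, midbrain and hindbrain. In each region 1 of the 8 was called lower, near the 11.8%, 15.1% and 11.8% of all genes called lower. Atp2b2, a plasma membrane calcium pump, rose by 3.43 in forebrain, Pacsin1 by 3.01 and Ntrk2, the receptor of BDNF, by 2.32; Ckb, brain creatine kinase, had 546 ± 11.7 TPM at P0, against 964 ± 151 TPM at E11.5, and was not called at -0.81. The gene called lower was Rest, a repressor of neuronal genes, named after its values were seen, with -1.70, -1.74 and -1.60 in forebrain, midbrain and hindbrain and -1.66 in liver, where the call was lost at -0.68 with median-of-ratios scaling and -0.96 with quantile normalization.

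**Figure D5:**
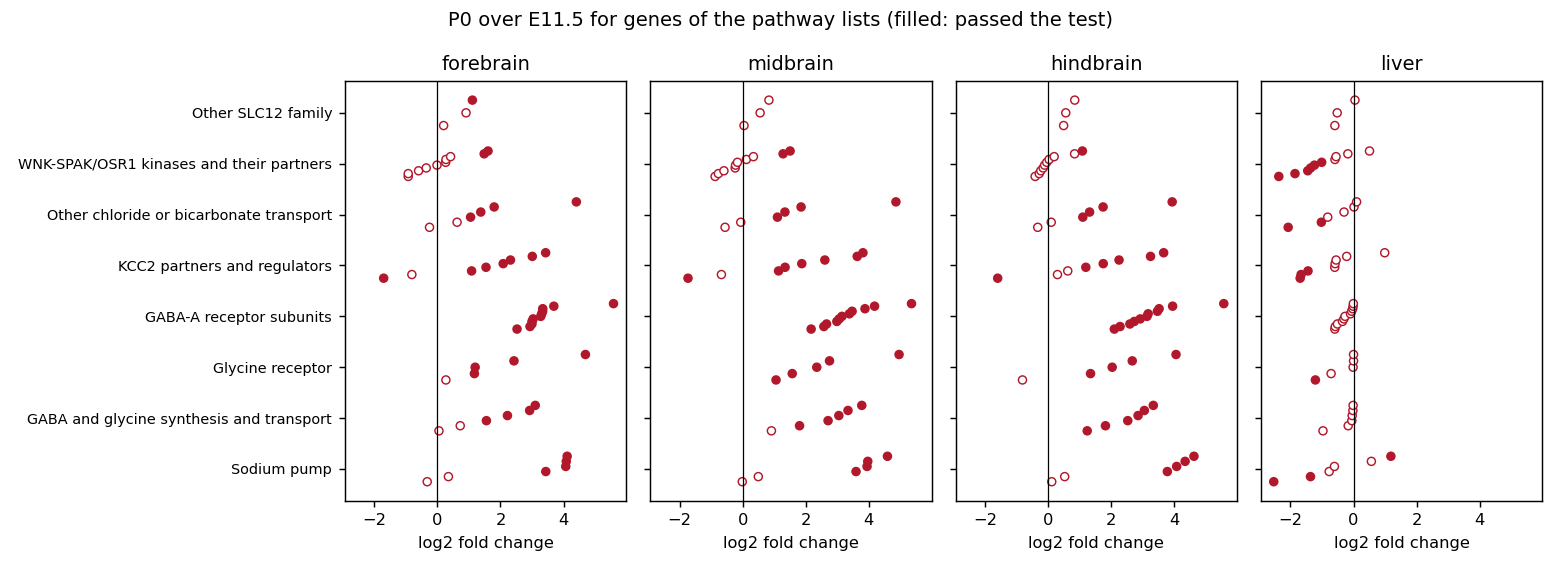
Log2 fold change of P0 over E11.5 for the tested genes of 8 lists around chloride transport, by tissue; each point is a gene, filled where it was called, and the height within a list only separates points. GABA-A receptor subunits, 11 of 11, lie to the right of 0 in each brain region. In liver 0 of 11 are called, where 46.3% of all genes are called in either direction and 1519 of 18655 are called higher.

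Each member had its own closest genes over the 61 libraries, among tested genes averaging 5 TPM or more. By Pearson r of log2(TPM + 1), Slc12a5 was most like Dzank1, Osbp2 and Nptxr (0.99 each). Slc12a2 was most like Miga1, Ift172 and Specc1l (0.99 each), and Slc12a7 like Ctnna1, Ajuba and Igf2bp3 (0.98, 0.97 and 0.97). Slc12a4 had no gene above 0.81, and its nearest were Airn, Srd5a3 and Lama5 (0.81, 0.81 and 0.78). The libraries share tissue and stage, so these values describe the table.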

How the data were processed

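Stranded mRNA libraries were made from total RNA of each tissue, per the labels' protocols. The authors deposited 1 table of TPM values per gene and library; STAR 2.4.0k, RSEM 1.2.23 and mm10 are listed in the submitters' processing notes, without their roles. Columns were placed by the tissue and stage in their headers, and symbols came from GENCODE M21 (42462 of 43346 identifiers matched). TPM keeps no counts, so precision rests on the spread between libraries.

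The filter kept 18655 genes that reached 1 TPM in 2 or more libraries. Differences were fitted to log2(TPM + 1) with limma 3.58.1 in R 4.3.3 (1 mean per tissue and stage, all libraries, 30 residual degrees of freedom, mean-variance trend) and adjusted by Benjamini-Hochberg over all genes within a comparison; low genes change by more than this scale shows. The ratio of Slc12a5 to Slc12a2 was tested by exact permutation within stages. Both procedures were tested on simulated data. Alternatives were other pseudocounts (0.1 and 0.5), no filter, 2 scalings, no trend, a replicate block, library class, and libraries left out. The members and lists were chosen with earlier results of these data known. Named genes of a list were up to 3 called genes of largest change and up to 2 genes not called with the highest TPM, in forebrain at P0 over E11.5. No pair of columns was identical. Values of some single genes of the lists are not reported here.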

Additional observations from a re-analysis of the deposited data

Results flagged for a closer look

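The change between E11.5 and P0 differed between a brain region and liver, by limma's test of the difference itself, for the following results. Slc12a5 changed more in brain by 4.37 in forebrain, 5.14 in midbrain and 3.85 in hindbrain (log2 scale, SE 0.208 each; limma, adjusted p = 1.64e-19, 1.7e-21 and 6.54e-18). Slc12a7 fell further in brain, by -1.40, -1.64 and -1.35 (SE 0.17 each; limma, adjusted p = 3.51e-09, 1.14e-10 and 8.94e-09). Slc12a4 differed by 1.67, 1.297 and 1.68 (SE 0.208 each; limma, adjusted p = 6.7e-09, 9.58e-07 and 6.37e-09), and Slc12a2 by 1.43 in forebrain and 1.198 in hindbrain (SE 0.132 each; limma, adjusted p = 6.76e-12 and 4.8e-10). For Slc12a4 and Slc12a2 the liver libraries at P0 lay below those at E11.5 and no change was called in brain, and all 5 of these calls were lost with median-of-ratios scaling and with quantile normalization. The median of all genes in these comparisons was 0.77, 0.66 and 0.71 in forebrain, midbrain and hindbrain. Of all genes 50.2%, 48.9% and 46.7% were called in them, so a call alone sets no gene apart here.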

How the results depend on the processing

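Apart from the leave-outs of single libraries, 822 values for the members and the ratio kept their direction and their side of the threshold, 18 changed direction, 9 passed the threshold where they had not, 22 no longer passed it and 4 moved by more than the spread between replicates. The cause of these shifts was not tested. Scaling mattered most against liver. Slc12a4 against liver was -1.360 in forebrain, -1.432 in midbrain and -1.116 in hindbrain with median-of-ratios scaling and -1.368, -1.529 and -1.256 with quantile normalization, and Slc12a7 was -0.269, -0.712 and -0.753, and -0.304, -0.806 and -0.871. Slc12a4 in hindbrain against liver also turned to -0.019 without the 4 libraries whose header and title differ, -0.015 with the library class as a term and -0.017 without E12.5. Slc12a2 in forebrain against hindbrain was -0.009 in the libraries outside the class low in miRNA genes, and Slc12a7 in midbrain against hindbrain -0.018 with that class as a term and -0.006 without E12.5; none of these was called.

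For P0 over E11.5, median-of-ratios scaling gave 0.044 for Slc12a4 in midbrain, and in liver -0.678 for Slc12a2, -0.309 for Slc12a4 and 0.241 for Slc12a7, and quantile normalization gave -0.969 for Slc12a2 and -0.568 for Slc12a4 in liver. With 4 libraries at the stage of their record Slc12a4 in hindbrain was -0.077, and with a pseudocount of 0.1 Slc12a5 in liver was -1.074 and called. The change in brain minus that in liver was 0.649 and 0.822 for Slc12a2 in forebrain, 0.498 and 0.637 in hindbrain, and for Slc12a4 0.625 and 0.650 in forebrain, 0.353 and 0.357 in midbrain and 0.710 and 0.770 in hindbrain, with median-of-ratios scaling first and quantile normalization after it. Slc12a4 in midbrain was 0.944 with the library class as a term. For Slc12a2 in midbrain minus liver, 0.93 in the report's setting, it was 1.324 and 1.117 with pseudocounts of 0.1 and 0.5, 1.080 at the stage of the record and 1.045 with the class as a term, all called. Between neighbouring stages Slc12a5 was 0.892 in midbrain at E12.5 with quantile normalization and 0.889 and 0.799 in hindbrain at E11.5 under the 2 scalings, and Slc12a4 at E13.5 was -0.849 and -0.827 in midbrain and -0.873 and -0.925 in hindbrain. The log2 ratio change was 5.472 and 5.345 in midbrain with pseudocounts of 0.1 and 0.5, 4.872 at the stage of the record, and 0.862 in liver with 0.1.

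Leaving out 1 library at a time, Slc12a4 in hindbrain against liver ranged over -0.021 to 0.041, Slc12a7 in midbrain against hindbrain over -0.018 to 0.041, Slc12a2 in forebrain at P0 over -0.314 to 0.164, Slc12a7 in liver at P0 over -1.047 to -0.664 and the Slc12a2 change in midbrain minus liver over 0.847 to 1.004, where 1.004 without midbrain E11.5 r2 was called. Between neighbouring stages Slc12a5 in hindbrain at E13.5 ranged over 0.964 to 1.435 and Slc12a4 over -1.207 to -0.833 in midbrain and -1.145 to -0.883 in hindbrain.

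Replicate numbers were not used to pair libraries in the main fit. Over 325 pairs of groups, the correlation of same-numbered deviations had a median of 0.003, ranged over -0.634 to 0.32 and exceeded 0.1 in 27. Most of these pairs join different stages, so the median cannot decide whether same-numbered libraries of a stage are paired. The fit with a replicate block also left out the unnumbered libraries, so its values reflect that removal as well. In it Slc12a4 in hindbrain against liver was -0.017, not called, and Slc12a5 in midbrain at P0 over E11.5 was 4.585. No call of a member changed. Midbrain P0 could not be fitted in the libraries outside the class low in miRNA genes, since both of its libraries are in that class. With 2 libraries a group and no counts, small differences at low TPM, such as Slc12a5 in liver, cannot be resolved.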
